A study of Mus musculus with 36 samples.

Results

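Transcripts of 10 neutrophil-associated genes, S100a8, S100a9, Lcn2, Retnlg, Wfdc21, Camp, Ngp, Ltf, Il1r2 and G0s2, were followed in sorted monocytes and macrophages of atherosclerotic mice. They were picked by gene symbol out of the 24421 genes counted in every library, and all 10 were found. The choice was made with their levels in the monocyte libraries already known. For that reason the monocyte values of these genes are given as a description, without p-values, and tests are given for other genes and for the other populations. The lists of other genes were also drawn up with earlier results known, so their tests are not independent of these data.

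All mice carried the Apoe ko genotype, which removes apolipoprotein E, slows the clearance of cholesterol-rich lipoproteins and leads to atherosclerosis. Circulating monocytes (taken from blood and spleen, with red cells lysed), peritoneal macrophages (from lavage) and aortic macrophages (from collagenase-digested whole aorta) were sorted by flow cytometry. Each population was taken on chow diet (baseline), after 1 month of high cholesterol diet (early) and after 6 months (advanced), which gives 9 groups of 4 libraries, 36 in total. The study asks how gene regulation in systemic and lesional monocytes and macrophages changes as atheroma starts and progresses. Every group, baseline included, lacks a wild-type counterpart, and the labels do not give the gate of the sorts, the age of the mice, or whether the 4 libraries of a group are 4 animals, so that a p-value reflects library-to-library spread, which may be technical.

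Neutrophils arise in bone marrow, where their granules are filled in sequence: azurophil granules with myeloperoxidase and serine proteases in early precursors, specific granules in later precursors, and gelatinase granules as the cells ripen. S100a8 and S100a9 form calprotectin, an abundant calcium-binding protein of the neutrophil cytosol. Camp (the cathelicidin precursor), Ngp (neutrophilic granule protein), Ltf (lactoferrin, which binds iron) and Lcn2 (lipocalin 2, which binds bacterial siderophores) are specific granule products, so that their messages are strongest in maturing marrow cells. Retnlg (a resistin-like secreted protein), Il1r2 (the decoy receptor for interleukin 1), G0s2 (an inhibitor of the lipase Pnpla2) and Wfdc21 (a small secreted whey acidic protein) are known from neutrophils nearer to or after release into blood. Classical monocytes also make S100a8, S100a9, Lcn2, Il1r2 and G0s2, so these are not exclusive to neutrophils. In RNA from sorted bulk cells, a different number of cells of a type and a different amount of RNA per cell cannot be told apart.

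On GRCm38.p6, S100a8 (plus strand) and S100a9 (minus strand) lie 22.6 kb apart on chromosome 3, and Camp, Ngp and Ltf lie within 1.2 Mb of chromosome 9. No exon of the 10 genes overlaps an exon of another annotated gene. Promoter sequence at a RefSeq start site of this build was at hand for 9 of the 10 genes, all but Wfdc21. In all of these but Retnlg the bases just after the start site were found in a GENCODE transcript of the gene. The Retnlg window below therefore rests on RefSeq alone. The 250 bases before each start site were searched on both strands for TTGCNNAA, a form of the site bound by C/EBP factors, which drive granule genes. They were also searched for GAGGAA, a core bound by PU.1, a regulator of myeloid genes. TTGCNNAA was present in 5 of the 9 (S100a9, Lcn2, Retnlg, Ngp and Ltf), against 9.56% of 32851 promoters of the same length, and GAGGAA in 3 of the 9 (S100a8, Lcn2 and Ltf), against 23.3%. The stretches before S100a9 (chr3:90695722-90695971, minus strand), Ltf (chr9:111019042-111019291, plus strand) and Retnlg (chr16:48872358-48872607, plus strand) are shown because S100a9 is the most abundant of these transcripts per length, Ltf is a granule gene that moved with it, and Retnlg took another course. They are read 5′ to 3′, and capitals mark the TTGCNNAA match on either strand.
S100a9: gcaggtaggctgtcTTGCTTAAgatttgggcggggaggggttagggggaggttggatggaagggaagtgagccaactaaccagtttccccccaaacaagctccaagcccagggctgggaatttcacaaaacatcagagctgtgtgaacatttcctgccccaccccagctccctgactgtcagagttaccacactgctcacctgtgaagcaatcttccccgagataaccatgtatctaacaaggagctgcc
Ltf: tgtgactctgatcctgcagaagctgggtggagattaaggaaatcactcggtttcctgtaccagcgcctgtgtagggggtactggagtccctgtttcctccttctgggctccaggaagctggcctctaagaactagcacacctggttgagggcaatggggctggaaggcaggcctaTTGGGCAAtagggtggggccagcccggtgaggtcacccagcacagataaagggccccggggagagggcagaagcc
Retnlg: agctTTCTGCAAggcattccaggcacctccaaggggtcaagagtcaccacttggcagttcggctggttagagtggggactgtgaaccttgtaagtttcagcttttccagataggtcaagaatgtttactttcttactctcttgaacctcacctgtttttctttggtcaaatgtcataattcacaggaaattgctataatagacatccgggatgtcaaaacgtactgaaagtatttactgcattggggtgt
Counted from the start site, the match begins at position -236 in S100a9, -75 in Ltf and -246 in Retnlg. Ngp had 2 matches to TTGCNNAA, while Camp, another granule gene with the same course, had neither motif in its window, as had Il1r2 and G0s2. The Il1r2 window (chr1:40085843-40086092, plus strand) lies inside the annotated gene, which begins at position 40084692, and precedes a later start site. A match describes letters in this window and not a bound site.

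Libraries held 942899 to 14771799 reads in genes. Baseline libraries were the deepest in every population (9105036 to 14771799 reads in monocytes), and the monocyte libraries held 1588174 to 2259001 reads early and 942899 to 1685481 advanced. Stage and depth, and any handling that went with depth, therefore cannot be told apart for comparisons with baseline. Levels are CPM, counts scaled to 1000000 reads in genes per library. In these units 3 reads, the floor used below, correspond to at most 0.329 CPM in a baseline, 1.89 CPM in an early and 3.18 CPM in an advanced monocyte library. In the monocyte libraries Csf1r, the receptor for macrophage colony-stimulating factor, had 1829 to 2191, 1308 to 1936 and 1387 to 1863 CPM at the 3 stages. Ly6c2, a surface protein of classical monocytes, had 412 to 749, 561 to 809 and 371 to 664 CPM. These values do not test the label. A list of 8 classical monocyte genes that holds both had 6216 to 8517 CPM in baseline aortic macrophages and 5708 to 8006 CPM in baseline monocytes.

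In monocytes, the calprotectin and granule transcripts were scarce at baseline and abundant at both diet stages. The 10 transcripts together came to 566, 173, 720 and 90.1 CPM in baseline libraries 1 to 4, to 14718, 11178, 3898 and 9077 CPM in early libraries 1 to 4, and to 7219, 14989, 41559 and 5169 CPM in advanced libraries 1 to 4. The highest baseline library thus stood below the lowest library of either diet stage. These 10 genes took up to 4.16% of all reads, in advanced library 3.

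**Figure D1:**
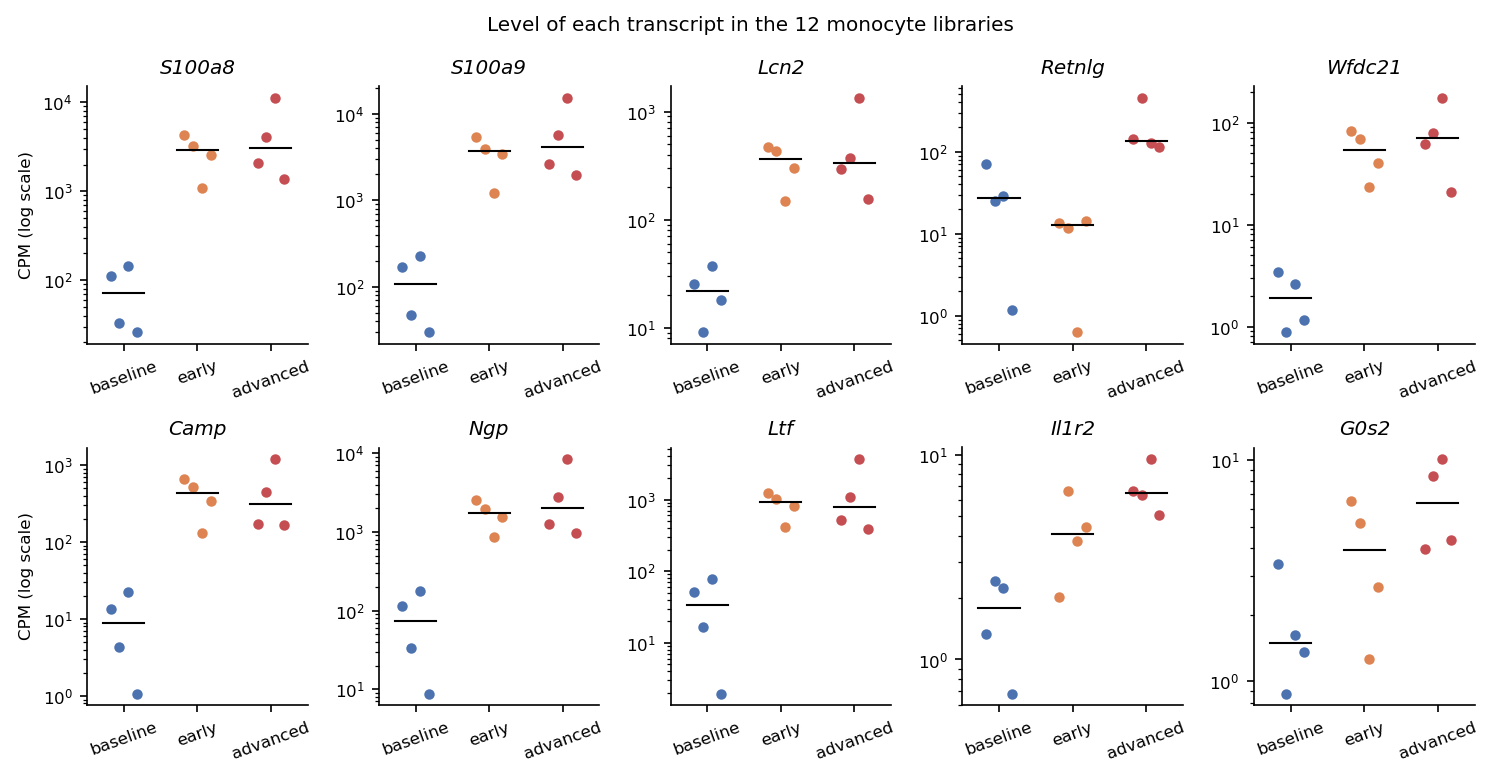
Level of each of the 10 transcripts in the 12 monocyte libraries by stage. Each point is a library, the vertical axes are CPM on a log scale that differs between panels, and the bar is the median of 4 libraries. S100a8, S100a9, Lcn2, Wfdc21, Camp, Ngp and Ltf show the baseline libraries apart from both later stages, while Retnlg is high at the advanced stage only, and Il1r2 and G0s2 stay at or under 10.1 CPM.

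S100a8 had 113, 32.7, 144 and 26.0 CPM in the 4 baseline libraries, 4341, 3211, 1089 and 2575 CPM in the early ones, and 2083, 4099, 11269 and 1390 CPM in the advanced ones. S100a9, its partner in calprotectin, had 169, 47.7, 228 and 29.9 CPM at baseline, 5383, 3924, 1225 and 3447 CPM early, and 2656, 5668, 15386 and 1963 CPM advanced. In both genes baseline overlapped neither diet stage, the early and advanced libraries overlapped each other, and the lowest early library was library 3. Of the 9465 genes tested in monocytes, 767 lay higher in every early than in every baseline library, and 833 lay lower. For advanced against baseline these counts were 951 and 1214. The log2 fold change of S100a8 was 5.18 ± 0.73 (SE) for early against baseline and 5.97 ± 0.76 for advanced against baseline, and that of S100a9 was 4.92 ± 0.76 and 5.84 ± 0.79.

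Among the specific granule genes, Ngp had 114, 32.9, 177 and 8.74 CPM at baseline, 2538, 1969, 863 and 1540 CPM early, and 1277, 2780, 8397 and 968 CPM advanced. Ltf had 51.7, 16.5, 77.2 and 1.94 CPM at baseline, 1227, 1021, 409 and 811 CPM early, and 522, 1074, 3652 and 383 CPM advanced. Camp had 13.4, 4.39, 22.5 and 1.07 CPM at baseline, 652, 525, 132 and 344 CPM early, and 169, 446, 1191 and 165 CPM advanced. The order of the libraries within a stage was nearly the same in these 3 genes, with baseline library 4 the lowest of the 12 and advanced library 3 the highest. Their log2 fold changes for early against baseline were 4.41 ± 0.82 for Ngp, 4.58 ± 0.85 for Ltf and 5.30 ± 0.79 for Camp, and for advanced against baseline 5.41 ± 0.85 for Ngp, 5.33 ± 0.88 for Ltf and 5.60 ± 0.80 for Camp. Camp at baseline rested on 11 to 332 reads per library and Ltf on 20 to 1140.

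Lcn2, also a granule product, had 25.5, 9.12, 37.2 and 18.0 CPM at baseline, 473, 435, 150 and 298 CPM early, and 294, 371, 1342 and 155 CPM advanced. Its fold changes were smaller than those of Camp and the S100 genes, at 3.92 ± 0.60 for early and 4.65 ± 0.62 for advanced against baseline on the log2 scale. Wfdc21 ranged over 0.879 to 3.40 CPM at baseline, 23.3 to 82.1 CPM early and 21.1 to 175 CPM advanced, with log2 fold changes of 4.68 ± 0.58 and 5.39 ± 0.59 for early and advanced against baseline.

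Il1r2 and G0s2 differed far less between stages. Il1r2 ranged over 0.680 to 2.42 CPM at baseline, 2.02 to 6.61 CPM early and 5.08 to 9.49 CPM advanced, on 4 to 33 reads per library. G0s2 ranged over 0.879 to 3.40 CPM at baseline, 1.26 to 6.55 CPM early and 3.97 to 10.1 CPM advanced, on 2 to 41 reads. Early and baseline libraries overlapped in both genes, with log2 fold changes of 1.37 ± 0.46 for Il1r2 and 1.12 ± 0.53 for G0s2, and advanced and baseline libraries did not, with 2.11 ± 0.45 and 1.90 ± 0.53. Among all 9465 genes tested, 951 likewise lay higher in every advanced than in every baseline library. Several of the diet-stage values are at or near the floor of 3 reads.

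Retnlg followed another course. It had 71.6, 25.2, 28.8 and 1.17 CPM at baseline, 13.6, 11.8, 0.630 and 14.2 CPM early, and 145, 456, 128 and 114 CPM advanced. The early libraries reached no more than 14.2 CPM while S100a8 there was at 1089 CPM or above, and the advanced libraries stood above all of the others. Among all 9465 genes tested, 427 lay higher in every advanced than in every early library, and 951 than in every baseline library. Retnlg was thus the gene of the 10 with a negative estimate for early against baseline, at -1.56 ± 0.85 on the log2 scale with overlapping libraries, and its difference for advanced against early was 4.29 ± 0.84. In early library 3 it rested on 1 read.

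Read by the same threshold as all 9465 genes tested in monocytes (adjusted p under 0.05 in edgeR's quasi-likelihood test), 7 of the 10 were higher in early than in baseline monocytes, where 5.74% of all genes were (10.8% changed in either direction). For advanced against early 1 of the 10, Retnlg, was higher, where 0.676% of all genes were (2.05% in either direction), and it did not pass without advanced library 2 (log2 fold change 3.69) or without early library 2 (4.35). For advanced against baseline 10 of 10 were higher, where 9.24% of all genes were (19.0% in either direction), and 8 to 10 passed with any single library left out. The choice of the genes rests on these same libraries, so the counts describe them and test nothing. The median log2 fold change of the 10 was 4.50 for early against baseline, 0.76 for advanced against early and 5.36 for advanced against baseline, while the medians over all genes tested were -6.25e-05, -0.002 and -0.015.

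**Figure D2:**
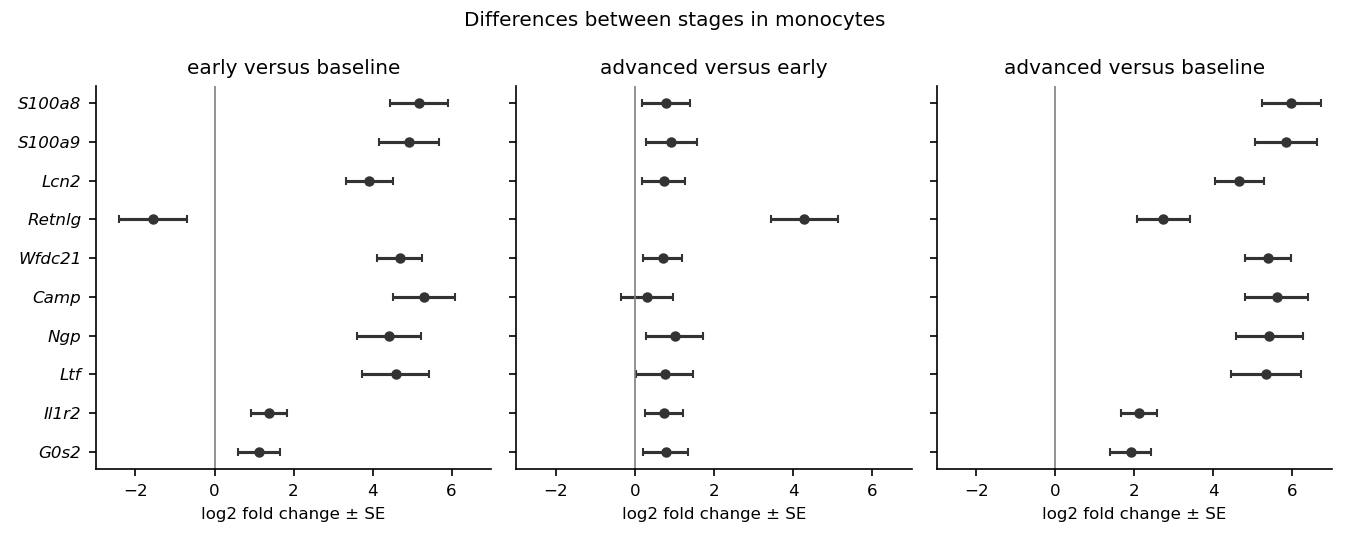
Log2 fold change with its standard error for each of the 10 transcripts in monocytes, in 3 panels for early against baseline, advanced against early and advanced against baseline (4 libraries per stage). Positive values mean higher in the later stage. Retnlg lies at -1.56, 4.29 and 2.73, and the other 9 lie above 0 in every panel, between 0.30 and 1.00 for advanced against early.

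The other 9 genes had small positive differences between advanced and early monocytes, 0.30 to 1.00 on the log2 scale, and in 7 of them the sign depended on a single library. Advanced library 3 had the highest value of S100a8, S100a9, Lcn2, Wfdc21, Camp, Ngp and Ltf of all 12. Without it the log2 difference was -0.70 for Camp, -0.41 for Ltf, -0.32 for Lcn2, -0.17 for S100a8, -0.06 for Ngp, -0.04 for S100a9 and -0.02 for Wfdc21. Il1r2 and G0s2 were at 0.51 and 0.45 without that library, and Retnlg at 4.45.

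The level of the calprotectin and granule transcripts varied widely among libraries of the same stage. Within each diet stage their proportions to each other varied less. S100a9 had 1.12 to 1.59 reads per S100a8 read in all 12 monocyte libraries, although S100a8 itself ranged from 26.0 to 11269 CPM among them. Ngp had 0.585 to 0.792 reads per S100a8 read in early and 0.613 to 0.745 in advanced libraries, and Ltf had 0.474 to 0.527 and 0.386 to 0.435 reads per Ngp read. At baseline Ngp had 1.01, 1.01, 1.23 and 0.336 reads per S100a8 read. Baseline library 4 departed in the granule genes: Ltf had 0.0746 reads per S100a8 read there and 0.458 to 0.538 in the other baseline libraries, and Lcn2 had 0.690 there and 0.226 to 0.279 in the others. Lcn2 had 0.109 to 0.138 reads per S100a8 read early and 0.0906 to 0.141 advanced, below every baseline library. Retnlg had 0.0448 to 0.768 reads per S100a8 read at baseline, 5.78e-04 to 0.0055 early and 0.0113 to 0.111 advanced, so that its proportion was lowest in the 4 early libraries.

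**Figure D3:**
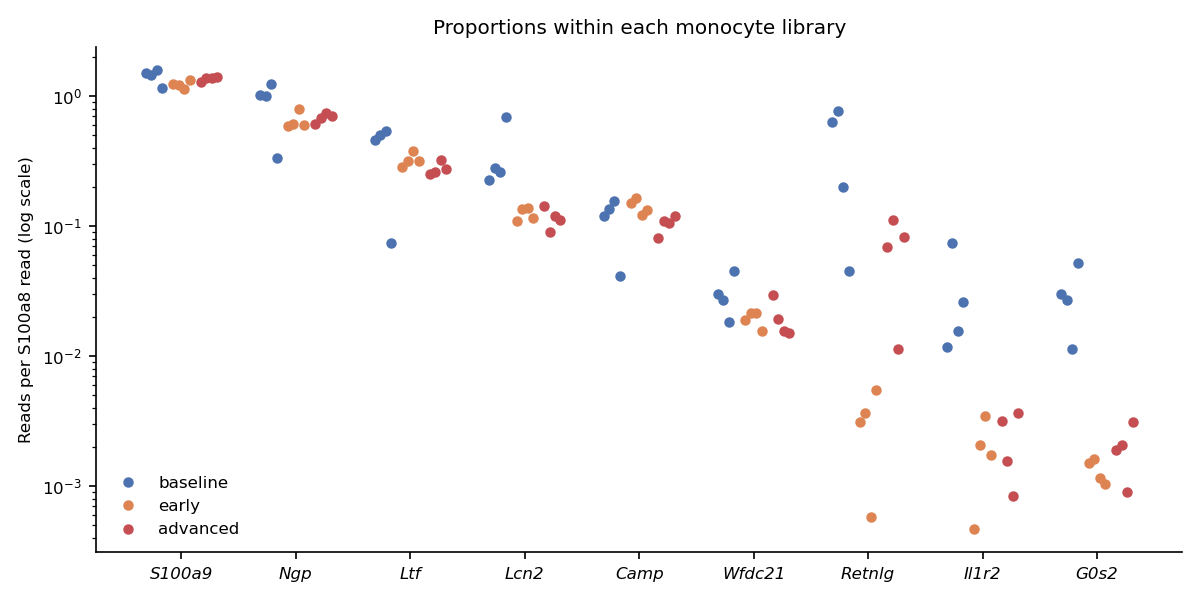
Reads of each of the other 9 transcripts per S100a8 read in each of the 12 monocyte libraries (log axis, points coloured by stage, in the order baseline, early, advanced within each gene). S100a9 stays between 1.12 and 1.59, Retnlg spans 5.78e-04 to 0.768, and Ngp, Ltf and Camp each have 1 low point, baseline library 4.

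After the stage mean was taken off each gene, Pearson's r over the 12 monocyte libraries was 0.995 between S100a8 and S100a9, 0.991 between Ngp and Ltf and 0.984 between Camp and Ngp. Each gene's r with the mean of the other members was 0.974 for S100a8, 0.983 for S100a9, 0.975 for Camp, 0.953 for Ngp, 0.928 for Ltf, 0.864 for Wfdc21 and 0.812 for Lcn2. It was lower for G0s2 (0.719), Retnlg (0.621) and Il1r2 (0.325). These values describe how the libraries lined up, since genes of a library share its depth and its cells. The genes outside the list whose deviations were most like the mean of the members were Hist1h3c (r = 0.982), Itgb2l (0.969), Syne1 (0.962), Hist1h2af (0.940), Syne2 (0.933), Smc4 (0.929), Hist1h2bn (0.923) and Ly75 (0.921), among genes with a mean of at least 20 CPM. For Retnlg the nearest were Pydc3 (0.908), Samd9l (0.904) and Ttc3 (0.904). Of these, Itgb2l encodes an integrin beta chain known from neutrophils, the 3 Hist1 genes encode histones, and Smc4 is a condensin subunit.

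Per kilobase of annotated exon (GENCODE), the order of the median levels in advanced monocytes was S100a9 (7973 CPM per kb), S100a8 (4454), Ngp (1660), Camp (406), Ltf (231), Retnlg (230), Wfdc21 (163), Lcn2 (127), G0s2 (7.37) and Il1r2 (3.40). Neighbours in this order overlapped between libraries down to Lcn2, and a wide gap separated Lcn2 (59.3 to 512) from G0s2 (4.56 to 11.6). At the early stage the order began with the same 4 genes, but Retnlg (median 21.4 CPM per kb) stood below Lcn2 (140). At baseline S100a9 (median 207), S100a8 (105), Ngp (60.2) and Retnlg (45.5) led, and Ltf had 9.87.

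**Figure D4:**
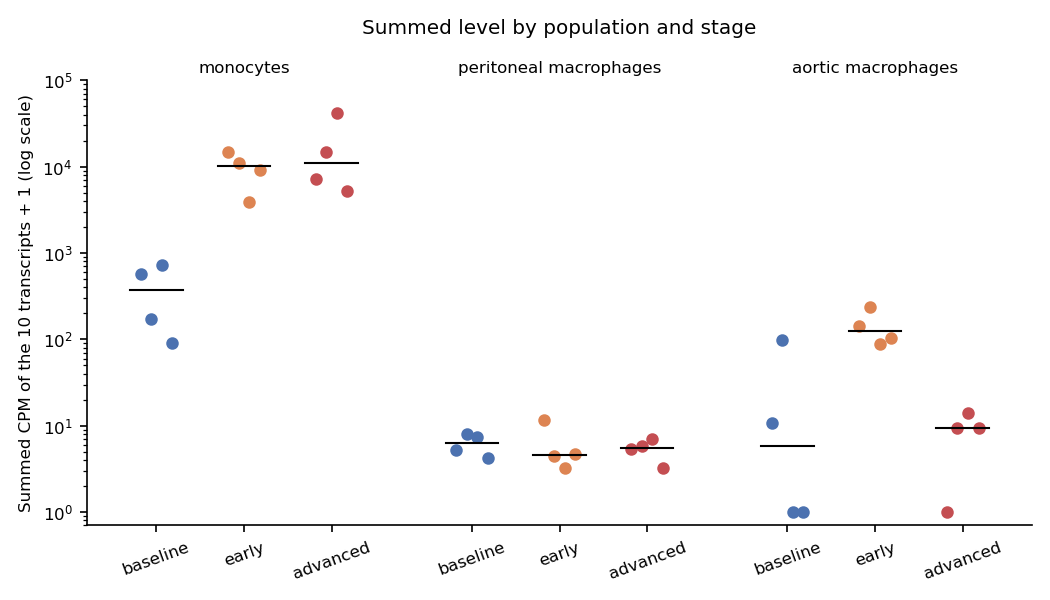
Summed CPM of the 10 transcripts plus 1 (log axis) in every library, by population and stage. Points are libraries and bars are medians. Monocytes at the diet stages lie between 3898 and 41559 CPM, peritoneal libraries between 2.26 and 10.7 CPM at every stage, and aortic early libraries between 86.4 and 238 CPM, a range that 1 aortic baseline library (96.8 CPM) also reached.

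A further 35 genes known from neutrophils were listed to place the 10 in a wider setting. Of these, 34 had a row in the files and 25 were high enough to be tested in monocytes. Ly6g, the surface marker by which mouse neutrophils are usually told apart, was not analysed here. In early against baseline monocytes 7 of the 25 were higher and 1 was lower, against 5.74% and 5.07% of all genes, with a median log2 fold change of 0.01. In advanced against baseline monocytes 11 were higher and 1 was lower, against 9.24% and 9.75% of all genes, with a median of 0.55. In advanced against early monocytes none passed in edgeR, where 2.05% of all genes did, and 7 had an unadjusted p under 0.05. DESeq2 called 1, where it called 4.40% of all genes. The edgeR median was also 0.55.

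Among the companions called higher than at baseline, Fcnb (ficolin B, known from marrow neutrophil precursors) had 2.91, 1.87, 3.52 and 2.14 CPM in baseline, 54.9, 34.5, 19.5 and 29.7 CPM in early and 15.9, 37.1, 116 and 13.1 CPM in advanced monocytes. Its log2 fold change against baseline was 3.73 ± 0.57 early (adjusted p = 0.0011, edgeR) and 4.18 ± 0.58 advanced (adjusted p = 3.90e-04). Itgb2l had 0.292 to 3.38 CPM in baseline, 13.9 to 57.9 CPM in early and 11.6 to 123 CPM in advanced monocytes, a log2 fold change against baseline of 4.30 ± 0.70 early (adjusted p = 0.0017, edgeR) and 4.65 ± 0.71 advanced (adjusted p = 6.93e-04). Chil1, a chitinase-like protein of specific granules, rose by 3.83 ± 0.66 early and 4.38 ± 0.67 advanced on the same scale (edgeR adjusted p = 0.0024 and 6.95e-04). In these 3 genes the libraries of the diet stages did not overlap those of baseline. Among all 9465 genes tested, 767 (early) and 951 (advanced) likewise lay higher than baseline in every library.

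Olfm4 (olfactomedin 4, a granule protein of a subset of neutrophils) was higher by 4.05 ± 0.86 in early and 4.13 ± 0.88 in advanced than in baseline monocytes (edgeR adjusted p = 0.0086 and 0.0050), with no read in 2 of the 4 baseline libraries. Hdc, which makes histamine, was higher by 2.29 ± 0.49 and 2.84 ± 0.50 (adjusted p = 0.0090 and 0.0014). Lrg1, a secreted glycoprotein, was higher by 3.49 ± 0.99 early and 6.09 ± 0.92 advanced (adjusted p = 0.0348 and 6.74e-04). The early call of Lrg1 was lost when any of 6 single libraries was left out (early 1, 2 or 4, baseline 1, 2 or 4).

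The defining genes of circulating mature neutrophils moved less uniformly. Cxcr2, the receptor that holds neutrophils in blood and draws them to tissue, had 4.65, 1.98, 4.06 and 2.14 CPM in baseline, 19.1, 13.2, 1.89 and 11.5 CPM in early and 34.4, 14.8, 23.1 and 4.36 CPM in advanced monocytes, with baseline overlapping both. Against baseline it was higher by 1.86 ± 0.55 early (adjusted p = 0.0426, edgeR) and by 2.63 ± 0.55 advanced (adjusted p = 0.0047), and the early call was lost without any of 7 single libraries (each baseline library, early 1, 2 or 4). Mmp9, the gelatinase of late granules, gave log2 fold changes against baseline of 1.28 ± 0.60 early (adjusted p = 0.1871) and 1.83 ± 0.61 advanced (adjusted p = 0.0467), the advanced call being lost without any of 6 libraries (baseline 2, 3 or 4, advanced 1, 2 or 3), in DESeq2 and with the replicate number as a block. Mmp8, neutrophil collagenase, had 63.9, 84.6, 42.4 and 170 CPM at baseline, 36.3, 32.6, 64.2 and 44.7 CPM early and 255, 41.4, 54.0 and 60.3 CPM advanced, and did not pass early or advanced against baseline (adjusted p = 0.2340 and 0.7856). Csf3r, the receptor for granulocyte colony-stimulating factor, which monocytes also carry, was lower by the test, with log2 fold changes against baseline of -0.60 ± 0.11 early (adjusted p = 0.0027) and -0.67 ± 0.11 advanced (adjusted p = 9.09e-04).

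The label of mature neutrophil transcripts therefore fits the data in part. The bulk of the signal came from calprotectin and specific granule genes. Fcnb, Itgb2l, Chil1 and Olfm4 moved with them, but these were named for their small p, as were Hdc and Lrg1, also called higher. Wfdc21, known from later neutrophils, shared the course too. Of the 25 companions tested against baseline, 13 had positive and 12 negative estimates early, and 22 and 3 advanced. Among the named genes of ripe neutrophils, Cxcr2 was higher at low levels, Mmp8 was not called and Csf3r was lower. Mmp9 passed only for advanced against baseline and in that comparison lost its call without any of the 6 libraries named above. The early call of Cxcr2 carries the limit given above. The set is called the calprotectin and granule transcripts. Retnlg was the member that took another course, and Il1r2 and G0s2 were those that differed far less between stages.

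Azurophil granule genes, which mark earlier granulocyte and monocyte precursors, were measured alongside (Mpo, Elane, Prtn3, Ctsg and Ms4a3). All 5 were higher in early and in advanced than in baseline monocytes by edgeR's test, where 5.74% and 9.24% of all genes were. Their libraries did not overlap those of baseline, and 767 (early) and 951 (advanced) of the 9465 genes tested likewise lay wholly higher. Their summed level was 9.91 to 29.1 CPM in baseline, 168 to 289 CPM in early and 129 to 805 CPM in advanced monocytes. Mpo (myeloperoxidase) had 13.2, 4.50, 16.6 and 3.40 CPM at baseline, 96.7, 104, 159 and 91.6 CPM early and 102, 116, 416 and 64.6 CPM advanced, a log2 fold change against baseline of 3.57 ± 0.56 early (adjusted p = 0.0012) and 4.27 ± 0.57 advanced (adjusted p = 3.04e-04). Ms4a3, a surface protein of granulocyte and monocyte progenitors, changed the most of the 5, by 4.77 ± 0.66 early and 5.84 ± 0.66 advanced (adjusted p = 6.87e-04 and 1.72e-04). Early library 3, lowest among the early libraries in S100a8 and Ngp, was highest in Mpo, so that Mpo had 0.185 reads per Ngp read there and 0.0381 to 0.0595 in the other early libraries.

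**Figure D5:**
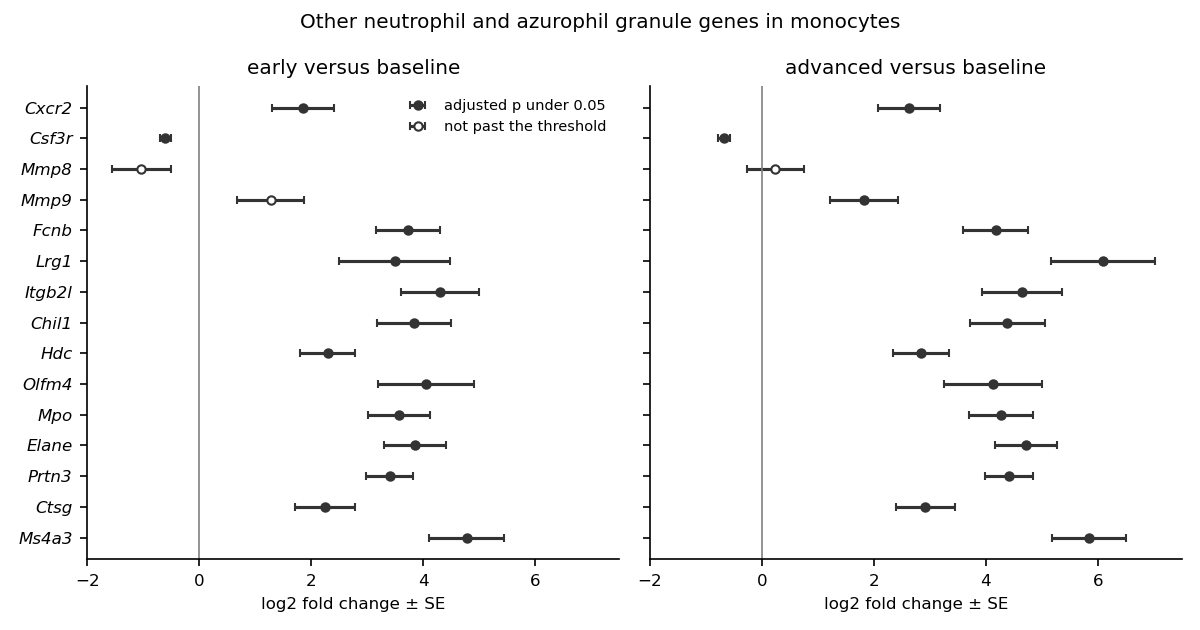
Log2 fold change with its standard error of the 10 named companion neutrophil genes and the 5 azurophil granule genes in monocytes, for early against baseline and advanced against baseline (4 libraries per stage). Filled points passed an adjusted p of 0.05 in edgeR's test. Fcnb, Itgb2l, Chil1, Hdc, Olfm4, Lrg1 and all 5 azurophil genes lie above 2, while Csf3r lies at -0.60 and -0.67.

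Markers of other cells also differed between the monocyte stages. Of all 9465 genes tested, 5.74% were called higher and 5.07% lower early than at baseline. For advanced against baseline 9.24% were called higher and 9.75% lower. Summed over the listed genes, T and NK cell markers had 10.6 to 34.7 CPM in baseline, 40.3 to 552 in early and 10.9 to 29.7 in advanced monocytes, and 5 of 6 tested were higher early than at baseline. B cell markers had 13.8 to 40.2 CPM at baseline, 32.7 to 129 early and 10.7 to 18.5 advanced, with 3 of 3 tested higher early. Alas2, the heme synthesis enzyme of red cell precursors, had 15.4 to 73.1 CPM at baseline, 1.01 to 6.64 early and 3.31 to 12.7 advanced, and was lower than at baseline early (log2 fold change -3.93 ± 0.57, edgeR adjusted p = 8.30e-04) and advanced (-3.07 ± 0.56, adjusted p = 0.0020). The hemoglobin genes Hba-a1, Hba-a2 and Hbb-bt had no read in any monocyte library. Classical monocyte genes had 5708 to 8006 CPM at baseline, 4334 to 6312 early and 5418 to 8543 advanced, and of 8 tested 0 passed early and 2 were higher advanced against baseline. Nonclassical monocyte genes, of which 3 of 10 were lower early and 5 of 10 lower advanced against baseline, had 5447 to 7483 CPM at baseline, 4401 to 5133 early and 2763 to 5089 advanced. The part of other cells in the levels of the calprotectin and granule transcripts was not tested.

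Eosinophil genes, like Retnlg, were lowest at the early and highest at the advanced stage. Prg2 (major basic protein) had 4.90, 0, 9.27 and 0 CPM in baseline monocytes, 0, 0, 0 and 1.77 CPM in early ones and 35.1, 121, 14.2 and 10.2 CPM in advanced ones. Epx (eosinophil peroxidase) had 0 to 7.38 CPM in baseline monocytes, no read in any early library and 7.71 to 66.8 CPM in advanced ones. Summed with Siglecf and the basophil and mast cell markers Mcpt8, Cpa3 and Prss34, the list had 0.389 to 24.2 CPM at baseline, 0.504 to 9.45 early and 26.1 to 232 advanced. Of its 3 tested genes 1, Prg2, passed for advanced against early (log2 fold change 6.36 ± 1.53, edgeR adjusted p = 0.0430), where 0.676% of all genes were called higher. Mcpt8 had no read in the advanced libraries. Advanced library 2 was the highest of the 12 in Retnlg, Prg2 and Epx. Over the 12 libraries, with stage means taken off, r with Retnlg was 0.599 for Prg2, 0.533 for Epx, 0.661 for Siglecf, 0.761 for Mmp9, 0.660 for Ngp, 0.581 for S100a8, 0.584 for Itgb2l, 0.831 for the B cell gene Ms4a1 and 0.871 for the T cell gene Cd3e, whose stage means took a different course. The part of eosinophils and of lymphocytes in the Retnlg level was not tested.

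Peritoneal macrophages held almost none of these transcripts. Their summed level was 4.23, 7.03, 6.46 and 3.28 CPM at baseline, 10.7, 3.52, 2.29 and 3.71 CPM early and 4.37, 4.80, 5.99 and 2.26 CPM advanced. None of the 10 was high enough to be tested there (1.79% of the 9575 genes tested passed for early against baseline, 1.33% for advanced against early and 0.898% for advanced against baseline). S100a8 had 125 reads over the 12 libraries and was seen in each, S100a9 had 17, and Camp, Retnlg and Ltf had 3 or fewer. S100a8 pooled to 26 reads (3.33 CPM) in early and 73 (1.60 CPM) in baseline libraries, a ratio of 2.08 with a 95% interval of 1.27 to 3.29 that covers counting error only, and early library 1 gave 16 of the 26 reads.

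Lcn2 had the most baseline reads of the 10 in the peritoneum. It had 22, 19, 36 and 36 reads in the deeper baseline libraries (1.86, 2.05, 3.53 and 2.52 CPM), 0, 0, 1 and 0 reads in early and 1, 1, 0 and 0 reads in advanced ones. The pooled ratio of early to baseline was 0.0516 (95% counting interval 0.0013 to 0.293). Without a filter on low counts edgeR gave a log2 fold change of -4.04 ± 1.05 (adjusted p = 0.0405), and DESeq2 -3.93 ± 1.18 (adjusted p = 0.0230). In these settings 2.66% and 6.43% of all genes were called for this comparison. S100a9 had an estimate of -4.10 ± 2.45 in the edgeR fit without the filter (adjusted p = 0.3868), on 16 baseline reads and none early. For Lcn2 without the filter, advanced against baseline gave -3.08 ± 0.93 (adjusted p = 0.1453).

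In aortic macrophages 7 of the 10 were rarely seen, and Retnlg, Il1r2 and G0s2 were the others. S100a8 had 7 reads over the 12 libraries, Lcn2 had 4, Ngp 2, S100a9 and Camp 1 each, Wfdc21 none, and Ltf 95 reads, all in baseline library 1. Retnlg had 0, 16.2, 0 and 0 CPM in baseline libraries, 112, 204, 77.6 and 91.7 CPM in early ones, on 183 to 267 reads, and 0, 0, 2.08 and 0 CPM in advanced ones. The early libraries lay above both other stages, as 3.80% of the genes tested did against baseline, and 3.48% lay lower in every advanced than in every early library. Retnlg and Il1r2 were the members tested among 9920 genes there, and neither passed in any comparison (0.373% of genes did for early against baseline, 0.0403% for advanced against early and 0.585% for advanced against baseline). The log2 fold change of Retnlg was 5.05 ± 1.70 for early against baseline (adjusted p = 0.2072, edgeR), -7.62 ± 1.99 for advanced against early (adjusted p = 0.4931) and -2.58 ± 1.70 for advanced against baseline (adjusted p = 0.8133). Retnlg was at 0 in 3 of 4 baseline and 3 of 4 advanced libraries and was high enough to be tested through its early libraries alone, so these values describe it and support no difference. Its call depended on the setting, since without the filter on low counts edgeR's adjusted p was 0.0044 for early against baseline and 5.89e-05 for advanced against early, and without baseline library 2 it was 0.0104 for early against baseline (log2 fold change 11.83). With any other baseline or early library left out, Retnlg did not pass for early against baseline (edgeR adjusted p 0.1502 to 0.4047). In DESeq2 the adjusted p was 0.2727 for early against baseline and 0.2697 for advanced against early. The spread between aortic libraries was wide, with a biological coefficient of variation of 110%, against 19.1% in monocytes.

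Il1r2 in the aorta had 0, 80.4, 0 and 0 CPM at baseline, where library 2 alone gave 670 reads, 12.7, 0, 8.75 and 10.5 CPM early and 0, 7.0, 6.24 and 7.70 CPM advanced. Its log2 fold change was -1.11 ± 2.15 for early against baseline (edgeR adjusted p = 0.9638). That baseline library 2 was also the only baseline one with Retnlg or with reads of the azurophil gene Mpo (188). G0s2 had no read at baseline, 17.3, 33.5, 0 and 0.501 CPM early and 0, 0, 2.08 and 0 CPM advanced. It was below the filter in edgeR, and DESeq2 gave a log2 fold change of 9.18 ± 2.85 for early against baseline (adjusted p = 0.0277), where 6.27% of all genes passed. Without the filter edgeR gave 8.71 ± 2.99 (adjusted p = 0.1497). Nearly all of the early G0s2 reads were in libraries 1 (34) and 2 (44), so these values describe it and support no difference. For Retnlg the estimates for advanced against early had opposite signs in the 2 populations, 4.29 in monocytes and -7.62 in aortic macrophages on the log2 scale. The stages did not overlap in either. The monocyte values were known when the genes were chosen, and the aortic values support no difference, as said above. The difference between the populations was not tested. The azurophil genes were at 0 in all 4 early aortic libraries, where Retnlg was highest, and S100a8 was also at 0 in those 4, with 1 read of S100a9 and 1 of Camp over the 4.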

How the data were processed

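Per the labels' protocols, cells were sorted into lysis buffer, and polyA RNA from micro columns went into Ovation SoLo libraries read as pairs by a NextSeq500. The authors deposited raw counts for each gene symbol, a separate file for every library. STAR, featureCounts and mm10 stand in the submitters' processing notes. Versions, settings and the use of strand are not given in the sources used here. The counts are of reads, not molecules, so counting error alone enters the intervals and the 3-count floor. Totals ran from 942899 to 14771799 reads, Rn45s included. No files were identical.

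The 10 genes and all gene lists were chosen with earlier results of these data known. Stages were compared within each population (12 libraries, stage as the only factor) with edgeR 4.0.16 in R 4.3.3: quasi-likelihood test, TMM normalisation, filterByExpr, two-sided Benjamini-Hochberg adjusted p under 0.05 over all genes kept. Each SE was obtained as |log2 fold change| / √F. The edgeR fit of each population was run on simulated data for early against baseline. The alternatives named below were not. Likeness used deviations of log2 CPM (prior count 2) from the stage mean. All 10 members were named. Of the companions Ly6g, Cxcr2, Csf3r, Mmp8 and Mmp9 were named by rule, with the 8 of smallest p among those that passed, and likewise the 8 genes most like the mean of the members. Of every other list at most 3 genes were named by smallest p. Epx, Siglecf, Ms4a1, Cd3e, Csf1r, Ly6c2 and those named as 0 were singled out beside that rule, after their values were seen. A result of the erythroid list is not reported here. The lists of platelet, dendritic cell, and red pulp, peritoneal and aortic macrophage markers are described in the closing section. Replicate numbers did not pair the libraries (same-number correlations of -0.330 to 0.187 in monocytes). Tried as alternatives were no filter, RLE size factors, DESeq2 1.42.0, a replicate block, 1 fit over all 36 libraries, thinning to the lowest depth, and leaving out each library in turn.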

Additional observations from a re-analysis of the deposited data

Results flagged for a closer look

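A library was singled out where it lay apart from the other 3 of its group by more than Dixon's critical value at 95% allows. For normally distributed values chance gives this in about 1 in 20 groups. The rule was applied to CPM, and a group with reads in 1 library alone always meets it. The 17 of 111 groups examined that held such a library can therefore not be set against that rate. In monocytes these were Retnlg in advanced library 2 (456 CPM, the others 114 to 145), Mmp8 in advanced library 1 (255 CPM, the others 41.4 to 60.3), Itgb2l in advanced library 3 (123 CPM, the others 11.6 to 27.6), Chil1 in advanced library 3 (68.2 CPM, the others 6.54 to 15.9), Olfm4 in advanced library 3 (36.2 CPM, the others 6.36 to 9.26) and Hdc in early library 1 (26.7 CPM, the others 12.8 to 14.6). Among summed lists, the companion neutrophil genes were high in monocyte baseline library 4 (7619 CPM, the others 2561 to 3239), which was the lowest library in Ngp, Ltf and Camp. The classical monocyte genes were high in advanced library 1 (8543 CPM, the others 5418 to 5874), and the T and NK cell and dendritic cell genes in early library 2 (552 CPM, the others 40.3 to 114, and 306 CPM, the others 110 to 142).

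In aortic macrophages a single library of its group held all reads of Retnlg at baseline (16.2 CPM in library 2), Retnlg at the advanced stage (2.08 CPM in library 3), Il1r2 at baseline (80.4 CPM in library 2), G0s2 at the advanced stage (2.08 CPM in library 3) and Ltf at baseline (9.75 CPM in library 1). In peritoneal macrophages S100a8 was high in early library 1 (7.77 CPM, the others 1.52 to 2.12), and Lcn2 had its only early read in library 3 (0.762 CPM).

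Retnlg was higher in every advanced than in every early library of monocytes (log2 fold change 4.29). Among all 9465 genes tested there, 427 were. In aortic macrophages it was lower in every advanced than in every early library (-7.62), where 3.48% of the genes tested were. The monocyte values were known when the genes were chosen, and the aortic values support no difference. The difference between the populations was not tested.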

How the results depend on the processing

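The direction of every member's difference against baseline in monocytes held under all alternatives run, and 7 members passed for early against baseline whichever library was left out. The companion counts fell to 0 (early against baseline) and 1 (advanced against baseline) in the fit of all 36 libraries, which by construction shares the wider aortic spread, and in that fit the members called for advanced against early fell to 0. Of all 11052 genes in that fit, 17 were called early against baseline, 33 advanced against baseline and 0 advanced against early in monocytes, so the fall was general. For advanced against early, companions called came to 1 in DESeq2 (4.40% of all genes were called), 2 without the filter (2.36%) and 1 with RLE size factors (2.09%). In the aorta, members called came to 1, 1 and 2 (advanced against baseline, advanced against early and early against baseline) in the fit of all 36 libraries, where 16.4%, 2.90% and 19.1% of all genes were called. For advanced against early the count was 1 without the filter, where 0.259% of all genes were called, and 1 when thinned (0.104%). For early against baseline it was 1 in DESeq2, where 6.27% of all genes were called, and 1 without the filter (0.976%). That 1 was G0s2 in DESeq2 and Retnlg without the filter. In the peritoneum 1, Lcn2, was called for early against baseline in DESeq2 and without the filter, where 6.43% and 2.66% of all genes were called. With a library left out, companions called ranged from 6 to 8, 0 to 1 and 10 to 14 for early against baseline, advanced against early and advanced against baseline, members in monocytes from 7 to 7, 0 to 1 and 8 to 10, and members in the aorta from 0 to 1 for early against baseline.

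With a library left out, log2 fold changes for advanced against early ran from -0.694 to 0.875 in Chil1, -0.718 to 0.763 in Fcnb, -0.020 to 0.855 in Hdc, -0.899 to 0.673 in Itgb2l and -0.962 to 0.449 in Olfm4, each lowest without advanced library 3, and Mmp8 for advanced against baseline from -0.761 to 0.806, lowest without advanced library 1. Olfm4 also turned without early library 3 (-0.208) or 4 (-0.115), and Mmp8 without baseline library 3 (-0.006). With the replicate block, which the numbers do not call for, 858, 114 and 1479 genes were called in monocytes, Itgb2l (-0.151) and Olfm4 (-0.234) turned for advanced against early, and in the aorta Il1r2 turned to 5.667 early and 3.928 advanced against baseline and Retnlg to 0.199 advanced against baseline. With a library left out these ran from -1.523 to 7.973, -2.142 to 7.354 and -7.009 to 4.226, each highest without aortic baseline library 2. The cause was not tested. Il1r2 and G0s2 rested on 2 to 17 reads per library in monocytes at the diet stages, which limits the precision of their differences.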

Other observations

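The remaining marker lists were measured in the same monocyte libraries. Of all 9465 genes tested there, 5.74% were called higher and 5.07% lower early than at baseline. For advanced against baseline 9.24% were called higher and 9.75% lower, and for advanced against early 2.05% were called in either direction. Platelet genes had 19.6 to 64.4 CPM in baseline, 4.41 to 104 in early and 17.2 to 99.9 CPM in advanced libraries, and 0 of 3 tested passed in edgeR in any comparison. Dendritic cell genes had 81.0 to 147 CPM at baseline, 110 to 306 early and 40.4 to 57.4 advanced, with 2 of 4 tested lower in advanced than in baseline libraries (Flt3 at -1.06 ± 0.20 on the log2 scale, edgeR adjusted p = 0.0027, and Cd209a at -1.14 ± 0.37, adjusted p = 0.0404). Red pulp macrophage genes had 35.2 to 125 CPM at baseline, 105 to 259 early and 60.2 to 144 advanced, with 1 of 4, Cd5l, higher early than at baseline. The large peritoneal and aortic macrophage lists, which share Adgre1, had 235 to 249 and 518 to 575 CPM at baseline, 141 to 206 and 339 to 460 early, and 153 to 253 and 361 to 504 advanced. Of the 2 and 4 genes tested in them, 1 and 2 were lower early than at baseline.

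In peritoneal macrophages the azurophil genes summed to 52.5 to 90.8 CPM at baseline, 24.2 to 83.0 early and 60.6 to 86.6 advanced. Of the 5 genes only 1 was high enough to be tested there, so the sum does not show that all were present. That gene did not pass in edgeR in any comparison.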
